A study of Mus musculus with 29 samples.

Results

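The genes described here are the 6 subunits of the MCM helicase (Mcm2, Mcm3, Mcm4, Mcm5, Mcm6 and Mcm7), the initiation factor Mcm10, the loading factors Cdc6 and Cdt1, and geminin (Gmnn). These 10 genes were chosen by name from 19938 genes measured in the series. Each was represented by the probe set that carried its symbol alone and had the highest mean over 27 transfected arrays, and each of the 10 had 1 such probe set.

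The measurements come from C2C12, a mouse myoblast line that divides in serum-rich medium and fuses into myotubes when it differentiates. Proliferating cells at passage 27, kept in DMEM with 10% FBS, received 50 nM of a synthetic mimic of miR-365, miR-145, miR-34a, Let-7b, miR-29a, miR-22 or miR-1, or of AllStar, a negative control oligonucleotide, with the HiPerFect reagent. RNA was collected after 36 h. Each mimic had 3 arrays from 3 independent experiments, and the control had 3 transfections with a technical repeat of each, averaged here to 3 values. Untransfected cells at 70% confluence (myoblast) and terminally differentiated cells (myotube) had 1 array each. All cells are of 1 line, and each microRNA was raised by transfection of a mimic. The study asked which genes each microRNA regulates in dividing myoblasts.

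Licensing is the step in which a chromosome is made ready for replication. In late mitosis and G1 the origin recognition complex, Cdc6 and Cdt1 load the MCM2-7 ring onto DNA in an inactive form, and in S phase kinases and firing factors turn that ring into the working helicase. Geminin binds Cdt1 and blocks reloading, so that each origin fires only once per cycle. In dividing cells many of these genes are transcribed at the G1 to S transition by E2F factors, and muscle cells that leave the cycle on differentiation lower them.

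The mimics differ in the seed, bases 2 to 8 of the mature strand, through which a microRNA pairs with messenger RNA. The mature sequences below are shown because the mimic is the only difference between the 7 groups that the labels give. They come from RefSeq (build GRCm38.p6), which held 5 of the 7, with the seed in capitals. The labels do not name an arm, so the arm shown is the one usually taken as the main strand.
miR-34a-5p: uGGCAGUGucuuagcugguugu
miR-22-3p: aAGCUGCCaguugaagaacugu
miR-365-3p: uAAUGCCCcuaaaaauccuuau
miR-29a-3p: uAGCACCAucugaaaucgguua
let-7b-5p: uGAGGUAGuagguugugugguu
No 2 of these 5 seeds are the same. The remaining mimics were miR-1 and miR-145.

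Licensing and helicase genes were lower under 4 of the 7 microRNAs. All values are log2 units as deposited, so a difference of 1 is a 2-fold change of the signal. The median over the 10 genes differed from the control by −1.16 under miR-1, −0.53 under miR-34a, −0.51 under miR-22 and −0.48 under miR-365. Under miR-29a, miR-145 and Let-7b it differed by −0.16, −0.14 and −0.16, and over all genes the median difference lay between −0.01 and 0.04 in the 7 comparisons. An array measures the RNA of the whole culture, so fewer dividing cells and less RNA per cell cannot be told apart.

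A gene was called lower when limma's 2-sided test gave an adjusted p below 0.05 over all genes of that comparison. Under miR-1, 10 of 10 licensing and helicase genes were called lower, against 10.5% of all genes. Under miR-365 the count was 10 of 10, against 8.33%. It was 8 of 10 under miR-34a, against 6.06%, and 7 of 10 under miR-22, against 5.67%. Cdt1 (adjusted p = 0.0919) and Gmnn (0.0671) missed the threshold under miR-34a. Mcm5 (0.0658), Mcm7 (0.0516) and Cdt1 (0.124) missed it under miR-22. With the replicate number as a block, a paired fit, 10 of 10 passed under both miR-34a and miR-22, where Cdt1 had adjusted p values of 0.000576 and 0.00131. Leaving out single replicates, of the control or of a mimic, changed some of these counts. Between 6 and 9 genes then passed under miR-365 and between 4 and 8 under miR-22. The lowest counts, 6 and 4, came without replicate 3 of the respective mimic.

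Under miR-29a, miR-145 and Let-7b, 0 of 10 were called lower by limma, against backgrounds of 4.78%, 3.00% and 5.46%. At an unadjusted p below 0.05 the counts were 0, 1 and 2. All 7 comparisons used the same 3 control values, so they are not independent of each other. The 7 comparisons together gave each gene 1 F test, which 10 of 10 passed, against 49.4% of all genes. Its adjusted p ran from 1.79e-08 for Mcm3 to 0.000594 for Cdt1.

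**Figure D1:**
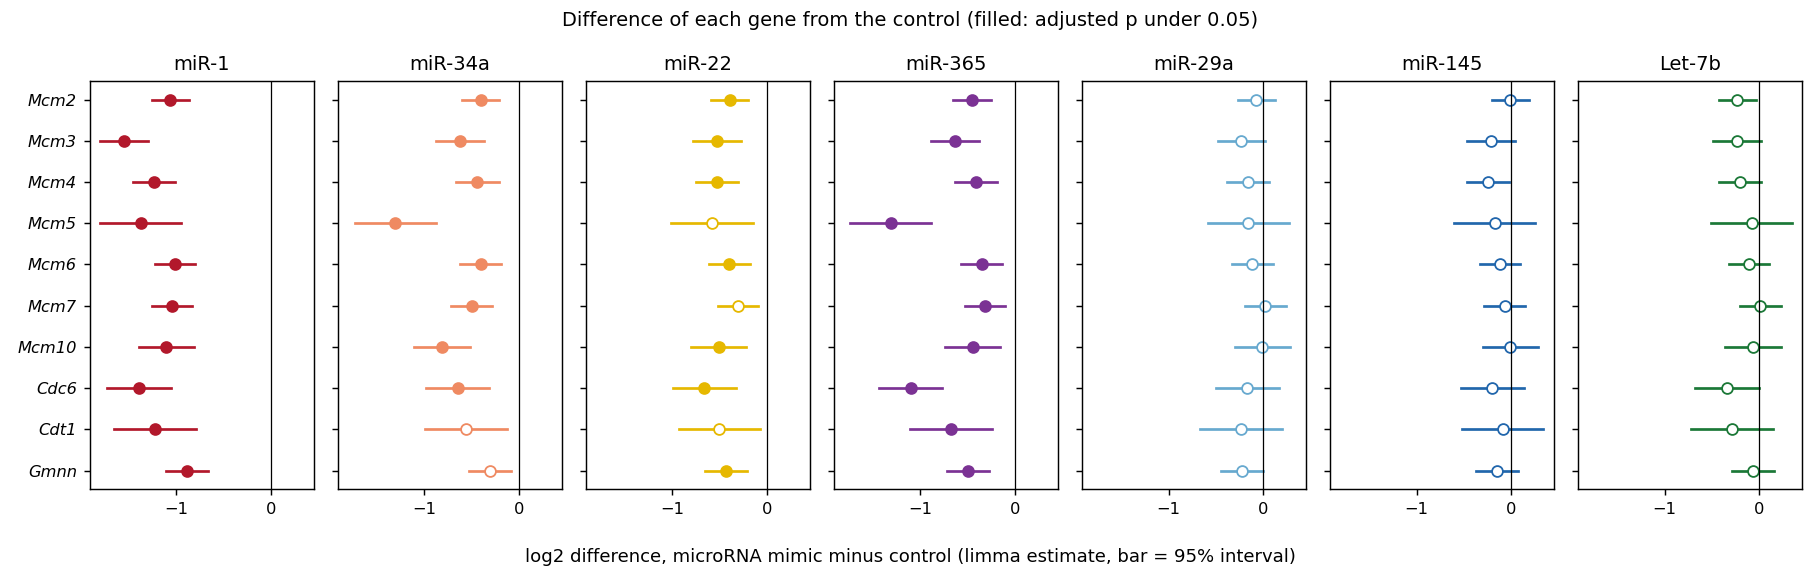
Log2 difference of each of the 10 genes from the control, 1 panel per microRNA; points are limma estimates, bars are 95% intervals, and filled points passed an adjusted p of 0.05. All points lie left of 0 under miR-1, miR-34a, miR-22 and miR-365, and Mcm5 stands furthest left under miR-34a and miR-365.

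Mcm2 is a subunit of the ring that also binds histones. Its 3 control values were 11.52, 11.51 and 11.52, and its 3 values under miR-1 were 10.59, 10.62 and 10.16. Under miR-34a, miR-22 and miR-365 its values ran from 11.07 to 11.16, from 11.06 to 11.18 and from 10.98 to 11.21. Every value under these 4 microRNAs lay below every control value, and the 3 last named groups overlapped each other. Mcm2 fell by 1.06 ± 0.09 (SE of the model, 3 values per group) under miR-1, a 2.09-fold change (adjusted p = 3.56e-08). Under miR-34a, miR-22 and miR-365 the differences were −0.40, −0.40 and −0.45.

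Mcm3 showed the largest fall of the 10 genes under miR-1. Control values of 10.67, 10.69 and 10.66 stood against 9.35, 9.30 and 8.71 under miR-1. Mcm3 read 10.00, 10.12 and 10.03 under miR-34a, 10.17, 10.23 and 10.03 under miR-22, and 10.01, 10.22 and 9.88 under miR-365. The miR-1 values were the lowest, the next 3 groups overlapped each other, and none of them reached a control value. Mcm3 fell by 1.55 ± 0.12 under miR-1 (2.93-fold, adjusted p = 8.55e-09), by 0.62 under miR-34a, by 0.53 under miR-22 and by 0.64 under miR-365.

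Mcm4, Mcm6 and Mcm7 form the core of the ring with helicase activity of its own. For Mcm4 the control values were 11.32, 11.25 and 11.27 and the miR-1 values 10.34, 10.05 and 9.74. Mcm6 gave 10.85, 10.88 and 10.999 in the control and 10.21, 9.89 and 9.59 under miR-1. Mcm7 gave 11.57, 11.62 and 11.50 in the control and 10.79, 10.58 and 10.18 under miR-1. Replicate 3 was the lowest of the miR-1 arrays for all 3 genes, and no miR-1 value reached a control value. The falls under miR-1 were 1.24 ± 0.11 for Mcm4 (adjusted p = 2.53e-08), 1.01 ± 0.10 for Mcm6 (1.8e-07) and 1.05 ± 0.10 for Mcm7 (1.22e-07).

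For the same 3 subunits the differences under miR-34a, miR-22 and miR-365 were smaller in size. Mcm4 differed by −0.44 under miR-34a, −0.53 under miR-22 and −0.41 under miR-365. Mcm6 differed by −0.40, −0.40 and −0.35 in the same order, and Mcm7 by −0.50, −0.30 and −0.32. Of these 9 differences, that of Mcm7 under miR-22 missed the threshold. Without control replicate 3, the calls for Mcm6 were lost under all 3 of these microRNAs (adjusted p = 0.0653, 0.0593 and 0.0835), and they were also lost without replicate 3 of miR-22 (0.0779) or of miR-365 (0.108). The call for Mcm7 under miR-365 was lost without control replicate 1 (0.0738) or 2 (0.116) and without miR-365 replicate 1 (0.0877) or 3 (0.113).

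Mcm5, which with Mcm2 forms the gate through which DNA enters the ring, was about as low under miR-34a and miR-365 as under miR-1. Its control values were 11.61, 11.37 and 11.37. Under miR-34a they were 10.33, 10.28 and 9.83, under miR-365 10.10, 10.52 and 9.80, and under miR-1 10.53, 10.24 and 9.46. Under miR-22 they were 11.03, 10.96 and 10.62. The miR-1, miR-34a and miR-365 groups overlapped each other and lay below all miR-22 values, which in turn lay below all control values. Its log2 difference from the control was −1.31 ± 0.21 under miR-34a (2.47-fold lower, adjusted p = 0.000142), −1.32 ± 0.21 under miR-365 (2.49-fold lower, 6.62e-05) and −1.38 ± 0.21 under miR-1 (2.60-fold lower, 2.43e-05). Its difference under miR-22 was −0.58 and did not pass without the replicate block (0.00603 with it).

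**Figure D2:**
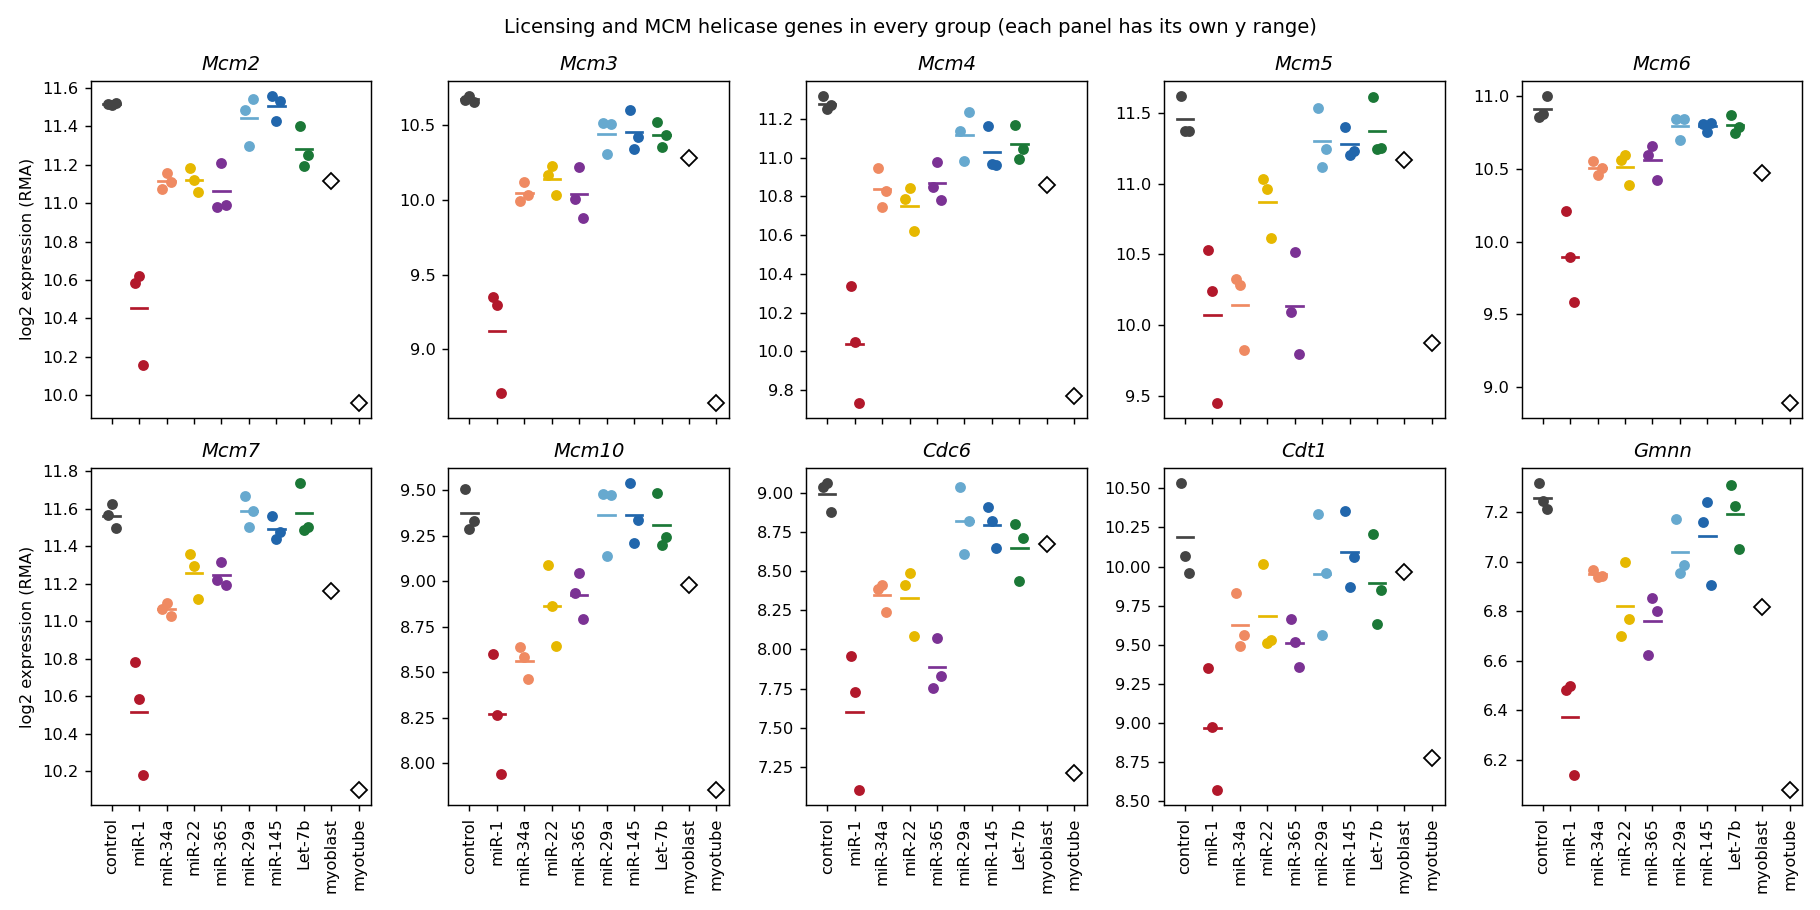
Log2 expression of the 10 genes, 1 panel per gene with its own y range; filled points are the 3 values of each transfected group, lines are group means, and open diamonds are the single myoblast and myotube arrays. The miR-1 values lie lowest of the transfected groups for 7 genes, and for Mcm5 the miR-34a and miR-365 values reach down among them.

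To set Mcm5 beside its partners, the mean log2 value of Mcm2, Mcm3, Mcm4, Mcm6 and Mcm7 was subtracted from that of Mcm5 in each sample. This measure was picked with the values in view, and only its change between groups has meaning, since probe sets differ in brightness. In the control it was 0.43, 0.18 and 0.18. Under miR-34a it was −0.40, −0.43 and −0.87, and under miR-365 it was −0.63, −0.36 and −0.86. These 6 values lay below every other transfected sample, whose lowest was −0.22 in replicate 3 of miR-1. The mean ± SD was 0.26 ± 0.14 in the control, −0.57 ± 0.27 under miR-34a and −0.62 ± 0.25 under miR-365 (n = 3 each), and the exact 2-sided permutation p was 0.1 for both, the smallest that 3 values against 3 can give. Under miR-1 the mean was 0.07 ± 0.26, and its exact permutation p was 0.4. Since the measure was picked from these same values, the permutation p values describe them and give no independent support.

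**Figure D3:**
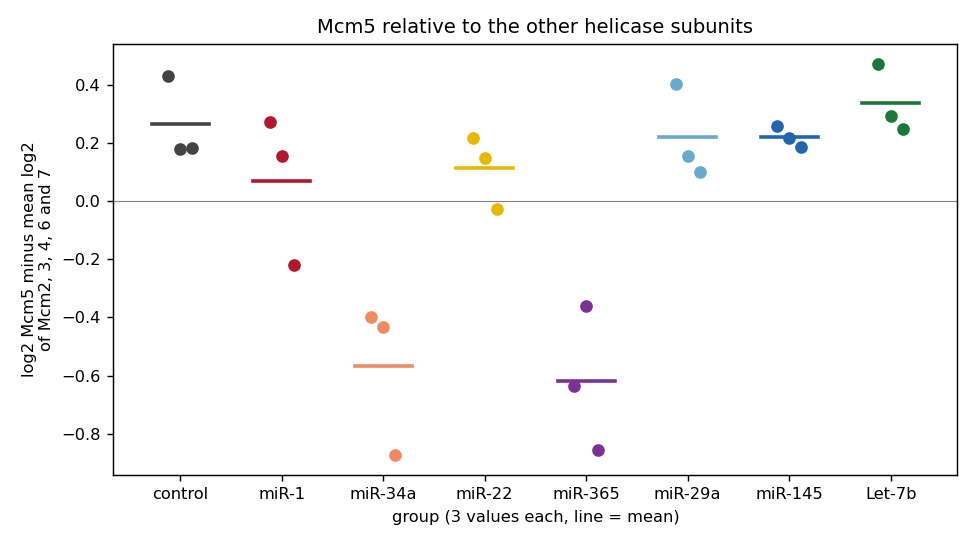
Log2 value of Mcm5 minus the mean log2 value of Mcm2, Mcm3, Mcm4, Mcm6 and Mcm7 in each of the 24 values; lines are group means. The 6 values under miR-34a and miR-365 lie between −0.87 and −0.36, below all others.

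Mcm10 is no part of the ring and helps the active helicase to leave the origin. It read 9.51, 9.29 and 9.33 in the control, 8.60, 8.26 and 7.94 under miR-1 and 8.64, 8.58 and 8.46 under miR-34a. Under miR-22 the values were 9.09, 8.86 and 8.64, and under miR-365 8.94, 9.04 and 8.79. All 12 values lay below the control values, and the miR-1 and miR-34a groups overlapped. Mcm10 fell by 1.11 ± 0.14 under miR-1 (adjusted p = 2.92e-06), by 0.81 ± 0.14 under miR-34a (0.00036), by 0.51 under miR-22 (0.0157) and by 0.45 under miR-365 (0.0254). The call under miR-22 was lost without control replicate 1 (0.0745) or miR-22 replicate 3 (0.124). The call under miR-365 was lost without control replicate 1 (0.11) or 3 (0.0514) and without miR-365 replicate 1 (0.0594) or 3 (0.124).

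Cdc6 is the ATPase that recruits MCM2-7 to the origin recognition complex. Its control values were 9.04, 9.06 and 8.88. Values of 7.96, 7.73 and 7.11 were measured under miR-1 and 7.75, 8.07 and 7.83 under miR-365, and these groups overlapped. Under miR-34a Cdc6 read 8.38, 8.41 and 8.24, and under miR-22 it read 8.41, 8.49 and 8.09, above all values of the first pair. Cdc6 fell by 1.39 ± 0.16 under miR-1 (2.63-fold, adjusted p = 8.98e-07), by 1.104 ± 0.16 under miR-365 (2.15-fold, 2.62e-05), by 0.65 under miR-34a (0.00924) and by 0.66 under miR-22 (0.00624). The calls under miR-34a and miR-22 were lost without replicate 3 of the respective mimic (0.0528 and 0.0601).

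Cdt1 carries MCM2-7 to the origin and is the protein that geminin inhibits. The control values were spread widely, at 10.53, 10.07 and 9.96. They were 9.35, 8.97 and 8.57 under miR-1 and 9.66, 9.51 and 9.35 under miR-365, all below the control. Under miR-34a they were 9.83, 9.49 and 9.56, and under miR-22 10.01, 9.51 and 9.53, where replicate 1 lay within the control range. Cdt1 fell by 1.22 ± 0.21 under miR-1 (adjusted p = 9.79e-05) and by 0.68 ± 0.21 under miR-365 (0.0226). The second call was lost without control replicate 1 (0.143) or miR-365 replicate 2 (0.051) or 3 (0.103). Its differences of −0.56 under miR-34a and −0.50 under miR-22 had the same standard error and passed with the replicate block, as given above.

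Geminin is the inhibitor of Cdt1 and is itself destroyed at the end of mitosis. Gmnn was the dimmest of the 10 probe sets, with control values of 7.32, 7.24 and 7.21 beside a median of 6.68 for probe sets without a listed gene. Under miR-1 it read 6.48, 6.50 and 6.14, below that median, so neither a fold nor a size of the fall is given there, and the points in the plots of differences carry the same limit. Under miR-34a it read 6.97, 6.94 and 6.94, under miR-22 6.70, 6.999 and 6.77, and under miR-365 6.62, 6.85 and 6.80. All 4 groups lay below the control values. Gmnn was called lower under miR-1 (adjusted p = 1.49e-06), under miR-22 (−0.43 ± 0.11, 0.00675) and under miR-365 (−0.50 ± 0.11, 0.0015). Its difference under miR-34a was −0.31, with an adjusted p of 0.0291 in the replicate block.

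Counted without a model, the number of genes whose 3 values all lay below all 3 control values was 10 under miR-1, 10 under miR-34a, 9 under miR-22 and 10 under miR-365. Over all genes this held for 15.2%, 14.2%, 13.6% and 14.5%. Under miR-29a, miR-145 and Let-7b it held for 4, 3 and 4 of the 10 genes, and for 11.3%, 8.79% and 13.5% of all genes. Taken by replicate number, 30 of 30 differences from the control of the same number were below 0 under each of the first 4 microRNAs. Under miR-29a and miR-145 25 of 30 were below 0, and under Let-7b 27 of 30. The 30 are 10 correlated genes on 3 arrays, so they are not independent. By the pairing rule given below, replicate numbers did not pair miR-1, miR-145 or Let-7b with the control. No share over all genes was computed for these counts. By group means, 50.3%, 44.3%, 53.1% and 50.5% of all genes lay below the control under the first 4 microRNAs. The shares were 45.1%, 35.9% and 48% under miR-29a, miR-145 and Let-7b.

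The 3 microRNAs with no call were not shown to leave the genes at the control level. Under Let-7b, Mcm2 read 11.40, 11.20 and 11.25, all below the control, with a difference of −0.23 and a 95% interval from −0.43 to −0.04 (adjusted p = 0.138). Cdc6 under Let-7b differed by −0.34, with an interval from −0.68 to −0.01 (0.228). Under miR-145, Mcm4 read 11.16, 10.97 and 10.96, below the control, and its difference of −0.25 had an interval from −0.47 to −0.02 (0.202). Under miR-29a the difference furthest below 0 was that of Cdt1, −0.23, with an interval from −0.67 to 0.20 (0.674). With the replicate block the interval was −0.45 to −0.01, and those of Mcm3 and Gmnn also left out 0, with unadjusted limma p values of 0.0378, 0.0495 and 0.0337. After adjustment over all genes these were 0.165, 0.202 and 0.152. Mcm7 differed by 0.02 under miR-29a, −0.07 under miR-145 and 0.01 under Let-7b. When only the control and Let-7b arrays were fitted, 2 genes were called lower, Mcm2 (0.0407) and Mcm3 (0.0402).

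Each microRNA was also compared with the mean of the other 6, which leaves the control out. All 10 genes were lower under miR-1, against 13.7% of all genes, with a median difference of −0.82. The differences ran from −1.14 for Mcm3 to −0.76 for Mcm6, with Gmnn left out of this range because its miR-1 values were not above the unnamed probe sets. For 7 genes the highest miR-1 value lay below the lowest value of any other microRNA. For Cdt1, 1 of these 7, the gap was narrow (9.35 in both), and Mcm5, Mcm10 and Cdc6 were the exceptions.

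Under miR-34a, 2 genes were lower than under the other 6, against 8.18%. These were Mcm5 (−0.69 ± 0.16, adjusted p = 0.0039) and Mcm10 (−0.45 ± 0.11, 0.00515), and neither passed without miR-34a replicate 3. Under miR-365, 2 were lower, against 11.3%, namely Mcm5 (−0.70 ± 0.16, 0.00161) and Cdc6 (−0.54 ± 0.12, 0.00188). Cdc6 under miR-34a differed from the other 6 by −0.00 (0.999), with an interval from −0.26 to 0.25. Under miR-22, 0 were lower and 0 higher by limma, also at an unadjusted p below 0.05, against 6.33% and 9.45%.

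The remaining 3 microRNAs stood above the others. All 10 genes were higher under miR-145, against 10.3%, 8 under miR-29a, against 8.80%, and 8 under Let-7b, against 8.19%. Median differences were 0.42, 0.37 and 0.35. Cdt1 and Gmnn did not pass under miR-29a (adjusted p = 0.203 and 0.185), and Mcm2 and Cdt1 did not under Let-7b (0.125 and 0.332). With the replicate block 9 genes were higher under miR-29a, 9 under Let-7b and 10 under miR-145, and 3 were lower under miR-34a. The mean of the other 6 includes the 4 lowering microRNAs, so a value above it is no rise over the control. The counts were 5 under miR-145 without its replicate 1 and 6 without its replicate 3, and 4 under Let-7b without its replicate 1.

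The miR-1 arrays were spread more widely than the rest. The median over the 10 genes of the SD within a group was 0.32 under miR-1, 0.07 in the control and between 0.08 and 0.14 in the other groups. Relative to the control mean, the median gene stood at −0.88 in replicate 1 of miR-1, at −1.16 in replicate 2 and at −1.49 in replicate 3. All 10 genes lay below all control values in each of these 3 arrays. The SD of the median gene over the whole array was 0.13 under miR-1 and 0.08 in the control.

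For some of the genes, samples of the same number shared a part of this spread. Cdt1 was highest in replicate 1 in 8 of 8 groups, at a mean of 0.30 above its group means. Mcm5 and Mcm10 were highest in replicate 1 in 7 of 8 groups. Mcm2 and Mcm6 showed no such pattern. The highest value of Mcm2 was in replicates 1, 2 and 3 in 3, 3 and 2 groups, and that of Mcm6 in 3, 2 and 3. The share of all genes with such a pattern is not given here. Mcm3 was highest in replicate 1 in 4 groups and in replicate 2 in 4. Replicate 3 was highest for Mcm3 in 0 groups, at a mean difference of −0.085 from its group means. What the number stands for beyond a separate experiment is not given in the labels.

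**Figure D4:**
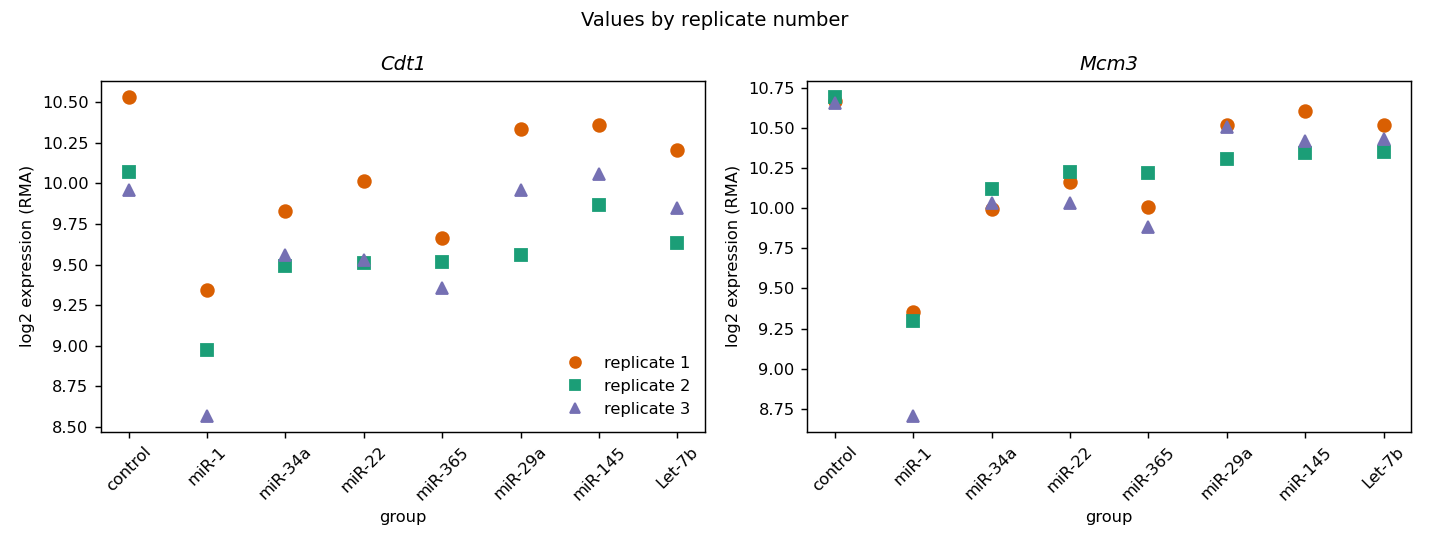
Log2 expression of Cdt1 (left) and Mcm3 (right) in the 8 transfected groups, with marker shape for the replicate number. Replicate 1 is the highest Cdt1 value in 8 of 8 groups, and for Mcm3 the highest value is replicate 1 or replicate 2.

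The 10 genes varied together. Over the 24 values, which share the arrays and the group differences, the 45 pairs of genes had a Pearson's r between 0.75 and 0.98 with a median of 0.89. With the group means taken out, the range was 0.31 to 0.93 and the median 0.81, so they also moved together among replicates. The miR-1 arrays, with the largest median SD (0.32), count heavily in these values. Neither a correlation without them nor a background of other genes is given. Over the 24 values the lowest pair was Mcm4 with Mcm5 and the highest Mcm4 with Mcm6. With the group means taken out, the lowest was Cdt1 with Gmnn and the highest Mcm2 with Mcm3. Each gene was also set against the mean of the other 9: Mcm5 had the lowest r (0.86) and Mcm3 the highest (0.97). These correlations are descriptions.

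Promoter sequences were looked at because the 10 genes moved together and because E2F factors are known to act on several of them. RefSeq windows from 250 bases before to 50 bases after the start were at hand for 8 of the 10, and those of Mcm4 and Gmnn were not used here. The E2F motif was searched as TTTCCCGC, TTTCGCGC, TTTGCCGC or TTTGGCGC on both strands. It was found in 6 of 8 genes (Mcm3, Mcm5, Mcm6, Mcm7, Cdc6 and Cdt1) and in 2.6% of 27025 genes in the table. Mcm2 and Mcm10 had no match in this window. CCAAT on both strands was found in 6 of 8 genes and in 41.1% of all, TTTGAA in 1 of 8 and 20.2%, and TATAAA in 0 of 8 and 15.7%. A match is a run of letters, and binding was not measured.

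Windows are shown for the subunit that fell furthest under miR-1 (Mcm3) and for the pair lowered most under miR-365 (Mcm5 and Cdc6). Letters are 5′ to 3′ on the gene's strand, with E2F matches in capitals, and the coordinates are GRCm38.p6. Mcm3 is on the minus strand at chr1:20820263-20820562, Mcm5 on the plus strand at chr8:75109259-75109558, and Cdc6 on the plus strand at chr11:98907901-98908200.
Mcm3: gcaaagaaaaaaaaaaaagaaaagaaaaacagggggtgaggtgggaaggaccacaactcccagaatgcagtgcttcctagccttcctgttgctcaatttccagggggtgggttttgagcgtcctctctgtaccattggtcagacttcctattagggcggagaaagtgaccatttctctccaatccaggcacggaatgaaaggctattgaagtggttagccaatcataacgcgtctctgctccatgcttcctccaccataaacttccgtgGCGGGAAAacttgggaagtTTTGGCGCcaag
Mcm5: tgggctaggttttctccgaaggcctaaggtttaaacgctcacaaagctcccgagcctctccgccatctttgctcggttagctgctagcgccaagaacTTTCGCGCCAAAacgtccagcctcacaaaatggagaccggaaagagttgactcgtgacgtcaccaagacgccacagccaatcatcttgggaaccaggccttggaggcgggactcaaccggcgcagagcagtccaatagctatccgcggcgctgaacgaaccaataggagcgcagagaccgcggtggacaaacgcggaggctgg
Cdc6: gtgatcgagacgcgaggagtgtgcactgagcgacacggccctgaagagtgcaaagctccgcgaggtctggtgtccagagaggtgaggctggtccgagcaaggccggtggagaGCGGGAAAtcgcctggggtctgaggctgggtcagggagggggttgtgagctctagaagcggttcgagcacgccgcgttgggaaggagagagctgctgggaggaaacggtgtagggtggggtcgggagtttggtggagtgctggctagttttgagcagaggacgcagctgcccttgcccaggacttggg
Mcm3 has matches that begin 20 and 39 bases after the start. Counted from the start, those of Mcm5 overlap each other and begin at −153 and −149, and the match of Cdc6 begins at −138. The matches of Mcm6, Mcm7 and Cdt1 begin between −165 and 33.

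Some subunits of the origin recognition complex, the platform for loading, were lower too. Of its 6 subunits, 3 fell under miR-1 (median difference −0.27), 3 under miR-34a (−0.33), 4 under miR-22 (−0.25), 1 under miR-365 (−0.12) and 1 under Let-7b (−0.11). By limma 0 fell under miR-29a and 0 under miR-145, and at an unadjusted p below 0.05 the counts were 1 and 0. Of all genes, 10.5% were called lower under miR-1, 6.06% under miR-34a, 5.67% under miR-22 and 8.33% under miR-365. The shares were 4.78% under miR-29a, 3.00% under miR-145 and 5.46% under Let-7b, and they apply to the replication gene lists below as well. A count of 1 in 6 is too small to set apart from such a share. Orc1, the subunit whose level cycles, fell by 1.21 ± 0.12 under miR-1 (adjusted p = 1.09e-07), by 0.73 under miR-34a, by 0.64 under miR-22 and by 0.40 under miR-365. Orc2 was lowest under miR-34a, where it fell by 0.96 ± 0.08 (1.31e-08), and it fell by 0.36 under miR-1 and by 0.23 under miR-22. Orc6 fell by 0.65 under miR-1, by 0.46 under miR-34a, by 0.37 under miR-22 and by 0.50 ± 0.09 under Let-7b (0.0009).

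Most firing factors, which turn the loaded ring into the active helicase, were lower under the same 4 microRNAs. Of 17, 17 fell under miR-1 (median difference −0.88), 13 under miR-34a (−0.34), 9 under miR-22 (−0.29), 11 under miR-365 (−0.44), 2 under miR-29a (−0.14) and 3 under Let-7b (−0.15). Under miR-145 the count was 0 by limma and 4 at an unadjusted p below 0.05 (−0.11). Ticrr, which brings firing factors to the ring, fell by 1.36 ± 0.13 under miR-1 (adjusted p = 1.08e-07) and by 0.72, 0.54 and 0.60 under miR-34a, miR-22 and miR-365. Ccne1, the cyclin partner of Cdk2 at S phase entry, fell by 1.16 ± 0.11 under miR-22 (2.77e-07), by 1.01 under miR-1, by 0.64 under miR-365, by 0.61 under miR-34a and by 0.41 under miR-29a. Gins4, a subunit of the active helicase, fell by 0.49 ± 0.06 under miR-1 and by 0.25 under miR-34a, and its difference under miR-365 was 0.16 (0.0729).

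The relatives of the MCM subunits moved in both directions. Mcm8, which acts with Mcm9 in recombination, differed by −0.14 under miR-1 (adjusted p = 0.379) and rose by 0.40 ± 0.10 under miR-365, 0.50 under miR-29a, 0.39 under miR-145 and 0.37 under Let-7b. Mcm9 fell by 0.43 ± 0.08 under miR-1 and 0.31 under miR-34a. Mcmbp, which binds MCM subunits outside the chromatin, fell by 0.29 under miR-1, 0.29 under miR-22, 0.20 under miR-365 and 0.24 under miR-29a. Of the 4 genes of this list, Mcmdc2 among them, 2 fell under miR-1 and at most 1 under any other microRNA, and at most 1 rose. The share of all genes called higher against the control was 13.2% under miR-1, 5.62% under miR-34a, 8.82% under miR-22, 11.7% under miR-365, 5.54% under miR-29a, 3.85% under miR-145 and 5.46% under Let-7b.

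Of 10 genes for the proteolysis that limits licensing, 5 fell and 2 rose under miR-1, 2 fell and 0 rose under miR-34a, and 3 fell and 1 rose under miR-22 (limma). Under miR-365 3 fell and 2 rose, and under miR-29a, miR-145 and Let-7b 2, 3 and 1 fell and 0 rose. Skp2, the substrate receptor of a ligase that acts on Cdt1, fell by 1.01 ± 0.08 under miR-365 (adjusted p = 5.74e-09), by 0.98 ± 0.08 under miR-29a (4.17e-08) and by 0.74 under miR-1. Skp2 was also called lower under miR-34a (−0.49), miR-22 (−0.29) and Let-7b (−0.30). Dtl, the receptor of the ligase that destroys Cdt1 on DNA-bound PCNA, fell by 1.34 ± 0.14 under miR-1 (1.91e-07) and was not called under any other microRNA. Pcna, the sliding clamp, fell by 0.61 ± 0.05 under miR-1, by 0.26 to 0.27 under miR-34a, miR-22 and miR-365, and by 0.17 under miR-145 (0.0295).

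Among 13 E2F and RB family genes, 9 fell under miR-1, 5 under miR-34a, 3 under miR-22, 7 under miR-365, 1 under miR-29a, 2 under miR-145 and 4 under Let-7b. In the same order 1, 0, 1, 2, 3, 2 and 2 rose. E2f5, mainly a repressor, fell by 1.63 ± 0.09 under miR-1 (adjusted p = 4.86e-10), 0.77 under miR-34a, 0.76 under Let-7b and 0.57 under miR-145, and rose by 0.34 under miR-365. Rbl1, which encodes the pocket protein p107, fell by 1.35 ± 0.12 under miR-1, 0.77 under miR-365, 0.46 under miR-22 and 0.42 under miR-34a. Tfdp2, a dimer partner of E2F factors, fell by 0.57 under miR-1 and rose by 0.40 under Let-7b and 0.33 under miR-145.

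The 8 genes outside the group whose 24 values ran closest to the mean of the 10 genes were Ticrr, Lig1, Pole, Ncapd2, Atad2, Kif18b, Foxm1 and Chaf1b. Their Pearson's r ranged from 0.985 for Ticrr to 0.966 for Chaf1b, over values that share arrays and group differences. Lig1, which joins replicated DNA fragments, differed by −1.16 under miR-1, −0.43 under miR-34a, −0.47 under miR-22 and −0.55 under miR-365. For Pole, the catalytic subunit of a replicative polymerase, the differences were −1.16, −0.49, −0.54 and −0.66. Foxm1 missed the threshold under miR-34a (adjusted p by limma 0.166) and miR-22 (0.109). Kif18b missed it under miR-22 (0.067) and miR-365 (0.0612), and Chaf1b under miR-22 (0.0567). Under miR-29a, miR-145 and Let-7b none of the 8 had an adjusted p below 0.4, the value of Atad2 under miR-145. The 8 genes were picked for following the members over these same values, so a like pattern follows from the choice.

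Differentiation offers a natural comparison, since myotubes have left the cell cycle. All 10 genes were lower on the myotube array than on the myoblast array, with a median difference of −1.17 beside −0.02 over all genes. At least 2-fold lower were 9 of 10, against 2.01% of all genes. With 1 array each there is no replicate check and no test. Mcm3 went from 10.28 to 8.64 (3.11-fold lower), Mcm6 from 10.47 to 8.89 (2.98-fold) and Cdc6 from 8.67 to 7.21 (2.76-fold). Gmnn went from 6.82 to 6.08, which lies under the 6.68 of unnamed probe sets.

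The myotube differences were close in size to those under miR-1 for most genes. For Mcm3 they were −1.64 in myotubes and −1.55 under miR-1, for Mcm7 −1.06 and −1.05, and for Mcm10 −1.13 and −1.11. Mcm6 differed most, at −1.58 and −1.01. The mean level under miR-1 stayed above the myotube value for all 10 genes, by 0.19 for Cdt1 to 1.00 for Mcm6. For Mcm6 the lowest of the 3 miR-1 arrays was 9.59 and the myotube array 8.89. The lowest miR-1 array lay under the myotube array for Mcm4 (9.74 and 9.77) and Mcm5 (9.46 and 9.88). The same held for Cdc6 (7.11 and 7.21) and Cdt1 (8.57 and 8.77), and for the remaining genes it lay above. For Gmnn the miR-1 and myotube values all lay under the 6.68 of unnamed probe sets, so their order carries little.

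**Figure D5:**
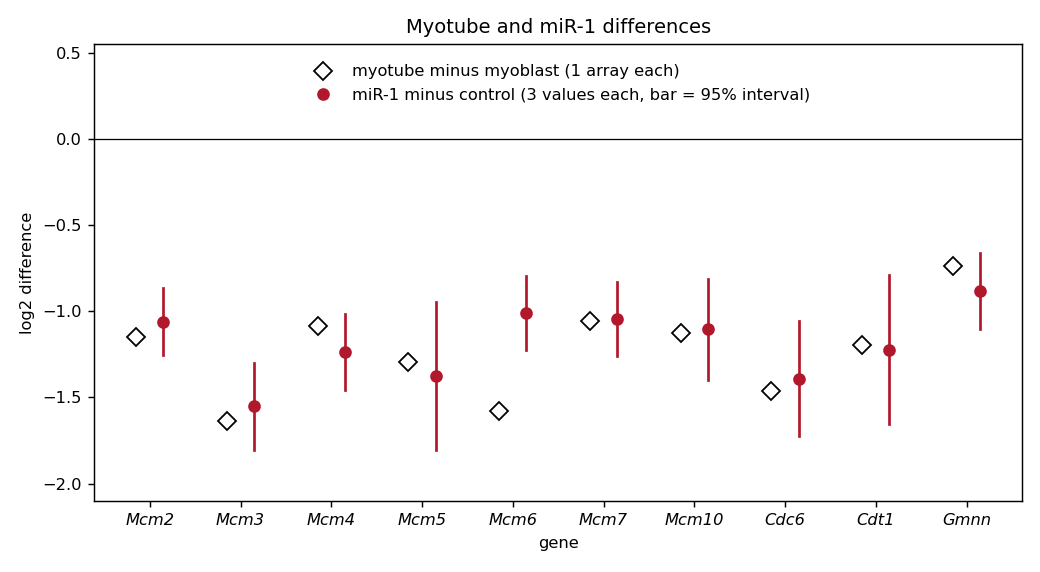
Log2 difference of each gene between the myotube and myoblast arrays (open diamonds, 1 array each) and between miR-1 and control (filled points, limma estimates with 95% intervals). All differences lie below 0, and only for Mcm6 does the diamond lie outside the interval of the miR-1 estimate.

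The myoblast array stood apart from the transfected cells. The 10 genes were 0.22 to 0.44 lower on it than in the control mean. The mean of 10 myotube markers was 12.09 on it, between 10.19 and 10.45 in the control and 12.89 on the myotube array. Myog, an early differentiation factor, read 11.56 on it and 9.43 to 10.05 in the control. The 6 myoblast markers had a mean of 11.52 on it and 11.49 to 11.69 in the control, but single markers lay outside the control range in both directions. Myod1 read 12.61 on it against 11.84 to 12.15 in the control, Des 13.52 against 13.12 to 13.21, and Myf5 9.61 against 10.44 to 10.55. The part of these markers in the difference between the untransfected arrays was not tested.

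Myotube markers moved with some of the groups. Of 10, 9 rose under miR-1, 8 under miR-34a, 6 under miR-22, 0 under miR-365, 4 under miR-29a and 2 under miR-145, and 3 fell under Let-7b. Of all genes, 13.2%, 5.62%, 8.82%, 11.7%, 5.54% and 3.85% were called higher in that order, and 5.46% lower under Let-7b. The summed level, as the mean of the 10, ran from 10.89 to 11.41 under miR-1, 11.09 to 11.23 under miR-34a and 10.94 to 11.02 under miR-22. It ran from 10.54 to 10.57 under miR-365, 10.57 to 10.93 under miR-29a, 10.42 to 11.07 under miR-145 and 9.53 to 10.20 under Let-7b. Under miR-365 all 10 licensing genes fell with 0 of the 10 markers called by limma and 1 higher at an unadjusted p below 0.05. The median of the 10 markers differed by 0.17 there. The part of differentiation in the lower levels was not tested under any of the 4 microRNAs. Markers of fat, bone and blood cells had list means of 5.93 to 6.41 in all transfected samples, beside the 6.68 of unnamed probe sets. Single markers lay above it, among them Plin1 (7.22 in the control), Cidec (6.94) and Dmp1 (6.95). By limma Sp7 rose under miR-29a (adjusted p = 0.00247), Cd74 rose under miR-22 (0.0025) and Dmp1 fell under miR-365 (0.041).

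Under miR-145, interferon response genes rose in 6 of 9, with a mean over the list from 7.20 to 10.70, against 6.14 to 6.32 in the control. Ifit3 rose by 4.50 ± 0.61 there (adjusted p = 5.33e-05), and none of the licensing genes passed against the control. The part of this response in the miR-145 values was not tested.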

How the data were processed

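The 29 arrays were deposited as log2 values made by the authors with RMA, which corrects background, equalises the arrays' quantiles and summarises probe sets, in Affymetrix Expression Console 1.1, per the submitters' processing notes. Filters and a genome build are not given in the sources used here. Of 35556 probe sets, 21789 carried 1 gene symbol. Array values ran from 2.35 to 14.65 with medians from 7.24 to 7.39, and precision is limited by how many arrays there were.

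The control values are means of an array and the technical repeat of the same number. For the 10 genes a repeat differed from its first array by 0.046 at the median and by 0.21 at most. The 24 values of 8 groups entered 1 model (limma 3.58.1 under R 4.3.3) with a variance trend, Benjamini-Hochberg adjustment over 19938 genes within each comparison and 2-sided tests at 0.05. The script was tested on simulated data. Replicate numbers pair a mimic with the control where residuals of all 3 same-number pairs correlate above 0.1. Under that rule miR-22 (lowest r 0.122), miR-29a, miR-34a and miR-365 were paired. The members and gene lists were chosen with earlier results of these data known. All 10 members are named; of other lists, the 3 genes with the lowest F test p, and the 8 genes that correlate best with the members' mean. Bglap and Isg15 were not analysed here. Alternatives covered the technical repeats, the block, the samples fitted, the variance trend, a filter that leaves out the dimmest 40% of genes, normalization, the probe set rule and leaving out each replicate.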

Additional observations from a re-analysis of the deposited data

How the results depend on the processing

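With the replicate number as a block, 10 of 10 genes were lower than the control under miR-1, miR-34a, miR-22 and miR-365, and 0 under the other 3. In a fit of the 2 groups alone, 2 were lower under Let-7b. When single replicates were left out, the count of lower genes lay between 4 and 8 for miR-22 and between 6 and 9 for miR-365, and that against the other 6 microRNAs between 0 and 2 for miR-34a. The count of higher genes against the other 6 was as low as 5 for miR-145 and 4 for Let-7b. The median difference lay between −0.58 and −0.46 for miR-34a and between −0.20 and −0.10 for miR-145. Signs changed only for differences that passed the threshold in no setting. Mcm2 under miR-145 was 0.0068 without the technical repeats and 0.0072 after a second quantile normalization, and −0.036 to 0.029 when replicates were left out. Centred on the array median, Mcm7 was −0.00737 under miR-29a and −0.000613 under Let-7b. With replicates left out, Mcm7 ran from −0.015 to 0.067 under miR-29a and from −0.068 to 0.057 under Let-7b, Mcm10 from −0.068 to 0.10 under miR-29a, from −0.0985 to 0.064 under miR-145 and from −0.15 to 3.25e-05 under Let-7b, Cdt1 from −0.22 to 0.081 under miR-145, and Gmnn from −0.12 to 0.0085 under Let-7b. The cause was not tested. The filter on dim genes removed Gmnn and kept 9 of 10 genes. The 3 values per group limit every comparison.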
